A study of Mus musculus with 20 samples.

Results

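The cells described here are the *Nanog*-expressing cells that had appeared by day 28 of reprogramming of extraembryonic endoderm (XEN) cells toward induced pluripotent stem (iPS) cells. They were chosen by a rule on single-cell RNA counts: at least 500 genes detected, 2 or more UMIs of *Nanog*, no UMI of *Gata4* or *Gata6*, and fewer than 5 UMIs summed over the fibroblast collagens *Col1a1*, *Col1a2* and *Col3a1*. A UMI is a molecular tag, so 1 UMI stands for 1 captured transcript. The rule chose 788 cells, 544 in replicate 1 and 244 in replicate 2, of the 7622 day 28 cells with 500 or more genes and of the 134279 cells in the 20 libraries of the series. The same rule chose 3819 XEN-iPS cells and 4848 ES cells. The XEN-iPS cells stand here for established pluripotency, though the study's methods call them nascent.

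The starting line was an embryo-derived 3F-4 XEN line, homozygous for a doxycycline-inducible *Oct4*, *Klf4*, *Sox2* and mCherry cassette in *Col1a1* (Col1A1TetO-OKSmCh/TetO-OKSmCh), with the M2rtTA transactivator on both *Rosa26* alleles (R26M2rtTA/M2rtTA) and a homozygous reporter of Oct4 (Oct4-GFPTg/Tg). The XEN libraries came from this line, kept on feeders in the same medium as the day 28 cells but for doxycycline. The day 28 cells had been sorted for mCherry after initial induction and grown on mitomycin-C treated mouse embryonic fibroblast feeders in serum and LIF with doxycycline, ascorbic acid and a GSK3β inhibitor. On the day of capture, 4 subpopulations sorted by SSEA-1 and Oct4-GFP were put together in about equal parts, so shares of cells in the day 28 libraries are not those of the dish. The XEN-iPS cells came from the same line through successive sorts, the last at day 28 for SSEA-1 and GFP without PDGFRα. They were then replated for 7 days on feeders in serum and LIF with neither doxycycline nor the 2 additives. The ES cells were another line (Col1A1TetO-Gata4/+; R26M2rtTA/+; Gata6H2B-Venus/+, with mCherry at the *Gata4* transgene in the methods' name for it), taken before induction, in serum and LIF on gelatin. Each group was 1 line sampled as 2 libraries described as technical duplicates, so p-values measure the spread between these libraries, which may be technical. The XEN-iPS pair differed more than the others over all genes and in Y-linked RNA, and whether its libraries came from 1 culture or clone is not known here.

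Mouse pluripotent cells hold their state through a network of transcription factors in which OCT4 (*Pou5f1*), SOX2 and NANOG are central, with naive-state factors such as ESRRB, KLF4 and TFCP2L1 around them. XEN cells are the cultured counterpart of primitive endoderm, the lineage next to the epiblast in the blastocyst, and run on GATA4, GATA6 and SOX17. In primitive endoderm these factors oppose the epiblast program. Genes of the germline are commonly methylated and silent in somatic cells and in cultured epiblast-like cells, and imprinted genes keep a parental mark that culture and reprogramming can disturb.

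The chosen day 28 cells were deeply sampled, with a median of 34066 and 54703 UMIs per cell in replicates 1 and 2, against 20746 and 16307 in XEN-iPS and 15225 and 16048 in ES. Summed over the chosen cells, the libraries held between 13602468 and 46104865 UMIs. The *Nanog* threshold therefore reached deeper into the expression range in day 28 than elsewhere. The duplicates were closest in ES and day 28, where the SD of the log2 ratio over genes at 10 or more counts per 1000000 UMIs (CPM) was 0.268 and 0.301. In XEN-iPS it was 0.745, and 922 of 6475 genes (14.2%) differed by over 2-fold between the duplicates. XEN, day 28 and ES libraries carried 1 sequencing project number, and the XEN-iPS libraries carried 2 others. The difference between day 28 and XEN-iPS cannot be told apart from sequencing project, medium, doxycycline and sorting on the day of capture, which all differed. The same holds for any difference in dissociation. Between 21 and 104 cell barcodes were shared by each pair of these day 28, XEN-iPS and ES libraries, 22 of them by the day 28 pair, and none of those 22 marked chosen cells in both.

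*Nanog*, which the rule used, stood at a median of 5 and 7 UMIs per chosen day 28 cell, 4 and 3 in XEN-iPS and 2 and 2 in ES. These counts were not scaled to depth, which was highest in day 28, so their order is not one of *Nanog* levels. Of all day 28 cells with 2 or more *Nanog* UMIs, 191 of 735 (26.0%) and 118 of 363 (32.5%) carried a *Gata4* or *Gata6* UMI and were left out by the rule. In XEN-iPS that was 46 of 2118 (2.17%) and 19 of 1846 (1.03%). These shares were taken before thinning, and depth raises them. The left-out day 28 cells had a median of 38421 and 68014.5 UMIs, against 20746 and 16307 in the chosen XEN-iPS cells. The part of free RNA of other cells in these shares was not tested. Just inside the threshold, the 86 and 26 day 28 cells with exactly 2 *Nanog* UMIs had *Zfp42* at 687.5 and 621 UMIs per 1000000. Just outside, the 87 and 26 cells with 1 *Nanog* UMI that met the rest of the rule had 661 and 638. *Sox2* was 216 and 185 inside and 214 and 165 outside, so the cells on both sides of the threshold carried similar amounts of both pluripotency RNAs.

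The pluripotency markers that the rule did not use were abundant, and their differences from XEN-iPS did not pass the test. *Zfp42* (Rex1, a naive-state zinc finger gene at chromosome 8, 43295063 to 43306980 in GRCm38) was at 891 and 822 CPM in the day 28 cells, 974 and 1499 in XEN-iPS, 886 and 643 in ES, and 1.73 and 1.35 in XEN. Thinned to 5000 UMIs per cell, 95.8% and 94.6% of the chosen cells carried a *Zfp42* UMI, against 14.4% and 12.2% of the day 28 cells with 2 or more *Gata4* or *Gata6* UMIs and no *Nanog* (*Gata* cells; 99.8% and 99.2% against 33.6% and 37.1% before thinning). *Dppa3* (Stella) was at 186 and 164 CPM in day 28, 189 and 115 in XEN-iPS, and 19.8 and 10.6 in ES. *Tdgf1*, a co-receptor of Nodal, was at 198 and 185 CPM in day 28, 331 and 199 in XEN-iPS, and 336 and 318 in ES. *Esrrb* was at 56.3 and 55.6 CPM in day 28, 46.8 and 124 in XEN-iPS, and 72.6 and 60.5 in ES. The day 28 values of *Dppa3* and *Esrrb* lay within or between those of the XEN-iPS duplicates, while those of *Zfp42* and *Tdgf1* lay below them. With edgeR's quasi-likelihood test and Benjamini-Hochberg adjustment, the log2 fold changes against XEN-iPS were −0.53 ± 0.28 (SE) for *Zfp42*, 0.20 ± 0.35 for *Dppa3*, −0.47 ± 0.27 for *Tdgf1* and −0.61 ± 0.42 for *Esrrb*, with adjusted p between 0.329 and 0.786. The signs of *Dppa3* and *Esrrb* turned without XEN-iPS replicate 2, to −0.12 and 0.24.

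**Figure D1:**
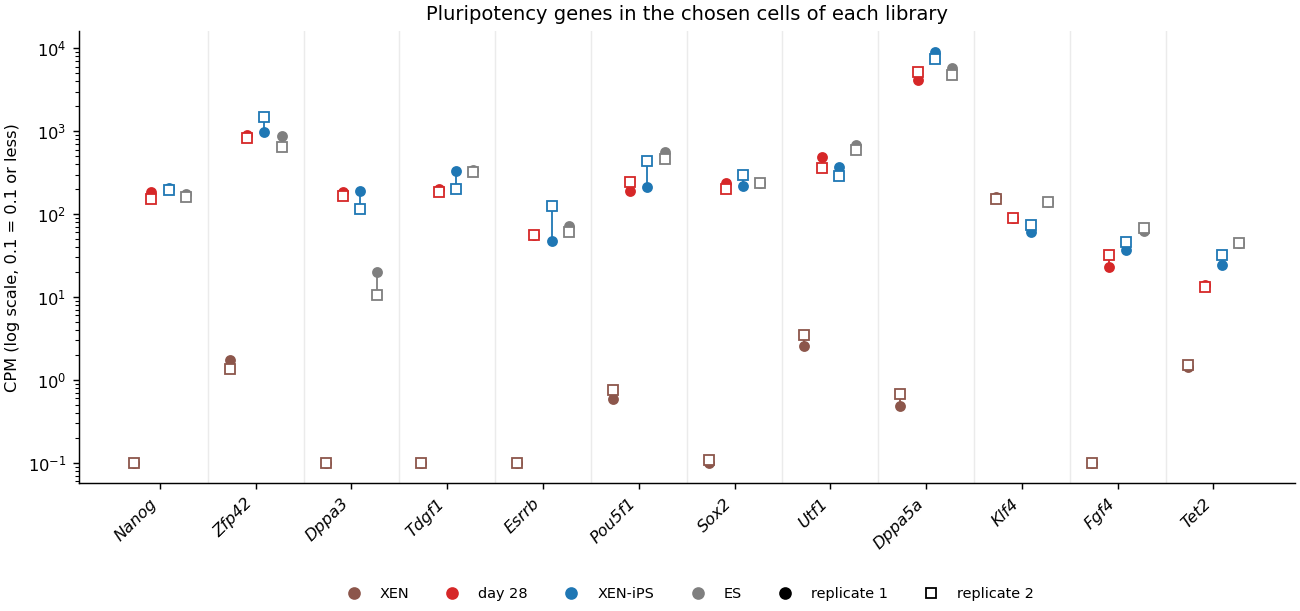
CPM on a log axis of 12 pluripotency genes, summed over the chosen cells of each library (XEN: all cells that pass the gene and collagen filters). Filled circles are replicate 1, open squares replicate 2, and a line joins them. The day 28 points lie among or near those of XEN-iPS, with *Zfp42* at 891 and 822 CPM against 1.73 and 1.35 in XEN. Some lie apart from ES, such as *Dppa3*, called higher than in ES, and *Tet2*, called lower.

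Across the whole transcriptome, 260 of 15075 tested genes (1.72%) were called different between day 28 and XEN-iPS pluripotent cells, at an adjusted p under 0.05 and at least 2-fold. Of these, 151 were higher in day 28 (1.00% of those tested) and 109 were lower (0.723%). None of 18 core pluripotency genes was called, with a median log2 fold change of −0.40 against −0.04 over all genes tested, and none of 18 naive genes, with a median of −0.11. *Pou5f1* was at 190 and 240 CPM in day 28 and 210 and 442 in XEN-iPS (−0.60 ± 0.34, adjusted p = 0.356), and *Sox2* at 237 and 203 against 217 and 298 (−0.23 ± 0.26, adjusted p = 0.657). The counts do not separate transcripts of the doxycycline-driven cassette from those of the endogenous *Pou5f1*, *Sox2* and *Klf4*. These counts rest on a wide XEN-iPS spread: without XEN-iPS replicate 1, 1 core gene was called higher and 5 lower and 4 naive genes lower, and without replicate 2, 1 core gene was called lower and 1 naive gene higher. DESeq2 called 2 core genes and 2 naive genes lower.

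The count of 260 depended on which libraries carried the fit. It was 15 without day 28 replicate 1, 19 without day 28 replicate 2, 923 without XEN-iPS replicate 2 and 2722 without XEN-iPS replicate 1. It was 72 and 74 without 1 of the ES libraries, 103 and 110 without 1 of the XEN libraries, and 1 when only the 4 libraries compared were fitted. Of the 260, 14 were called whichever of the 8 libraries was left out. They were *1700013H16Rik*, *Aqp8*, *Col4a2*, *Cox7b2*, *Foxa2*, *Gkn1*, *Gkn2*, *Hkdc1*, *Ina*, *Pvalb*, *S100g*, *Spock1*, *Srgn* and *Ttr*. Of these, *Aqp8*, *Col4a2*, *Foxa2*, *Gkn1*, *Gkn2*, *Hkdc1*, *S100g*, *Spock1*, *Srgn* and *Ttr* were at least 10-fold higher in the *Gata* cells of both day 28 libraries. *1700013H16Rik*, *Cox7b2*, *Ina* and *Pvalb* were lower there, and *Pvalb* passed the filter on low counts only through day 28.

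Among abundant genes, the largest decreases from XEN-iPS to day 28 were those of *H19*, described with the imprinted genes, *Tcf15* and *Ina*. *Tcf15*, a bHLH factor of epiblast cells that are leaving the naive state (chromosome 2, 152143561 to 152149097), was at 9.45 and 14.4 CPM in day 28, 145 and 125 in XEN-iPS, and 338 and 525 in ES. The day 28 libraries were below all libraries of the other pluripotent groups, and the log2 fold change against XEN-iPS was −3.50 ± 0.34 (adjusted p = 0.00295). At 5000 UMIs per cell, 4.60% and 4.96% of the chosen day 28 cells carried a *Tcf15* UMI, against 41.8% and 45.7% of XEN-iPS cells and 2.52% and 2.64% of day 28 *Gata* cells (22.6% and 41.4% against 75.9% and 78.4% of XEN-iPS cells before thinning). *Ina*, a neurofilament-type intermediate filament gene (chromosome 19, 47014698 to 47025327), was at 9.23 and 7.41 CPM in day 28, 65.2 and 79.4 in XEN-iPS, and 30.1 and 38.8 in ES (−3.12 ± 0.27, adjusted p = 0.00256). The call on *Tcf15* was lost without day 28 replicate 1, and that on *Ina* held without any 1 library.

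*Mras*, a Ras-family GTPase, had a like order, at 3.22 and 2.22 CPM in day 28, 26.4 and 26.9 in XEN-iPS, and 101 and 118 in ES (−3.28 ± 0.36, adjusted p = 0.00529). The rest of the 12 largest decreases among abundant genes, which reached a mean of 50 CPM in the higher group, were *Taf10*, *Chic2*, *2810417H13Rik*, *1500009L16Rik*, *Phlda2*, *Ybx1*, *Cpsf4l*, *Ltbp4* and *Etaa1*. *Ybx1*, an RNA-binding protein gene, was at 388 and 455 CPM in day 28 against 1058 and 1811 in XEN-iPS (−1.77 ± 0.30, adjusted p = 0.0283). *Taf10*, a subunit of the general transcription factor TFIID, was at 17.3 and 31.6 CPM against 138 and 205, and in ES it was at 24.3 and 41.5. In day 28 and ES alike, *Taf10* was thus below both XEN-iPS libraries, whereas *Ybx1* was lower in day 28 than in all 4 libraries of XEN-iPS and ES (958 and 1198 CPM in ES).

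Among abundant genes called higher in day 28, *1700013H16Rik*, an X-linked gene at 53742901 to 53757831, had the largest log2 fold change, 2.48 ± 0.24 (adjusted p = 0.00295). It was at 104 and 81.5 CPM in day 28, 14.3 and 18.9 in XEN-iPS, and at most 0.0257 in each ES and XEN library. *Asns*, the asparagine synthetase gene (chromosome 6, 7675169 to 7693254), was at 184 and 218 CPM in day 28, 61.6 and 48.7 in XEN-iPS, and 39.7 and 41.8 in ES (1.87 ± 0.24, adjusted p = 0.0127). The day 28 libraries were thus the highest of all 8 for both genes. The rest of the 12 largest increases were *Ddah1*, *Ctsl*, *Eno1b*, *Grcc10*, *Hexa*, *Serpinh1*, *Lactb2*, *Lpcat3*, *Atxn10* and *mt-Nd4l*. *Eno1b* is a close copy of *Eno1*, whose day 28 and XEN-iPS values overlapped (231 and 431 against 339 and 227 CPM), so its share of reads is uncertain.

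**Figure D2:**
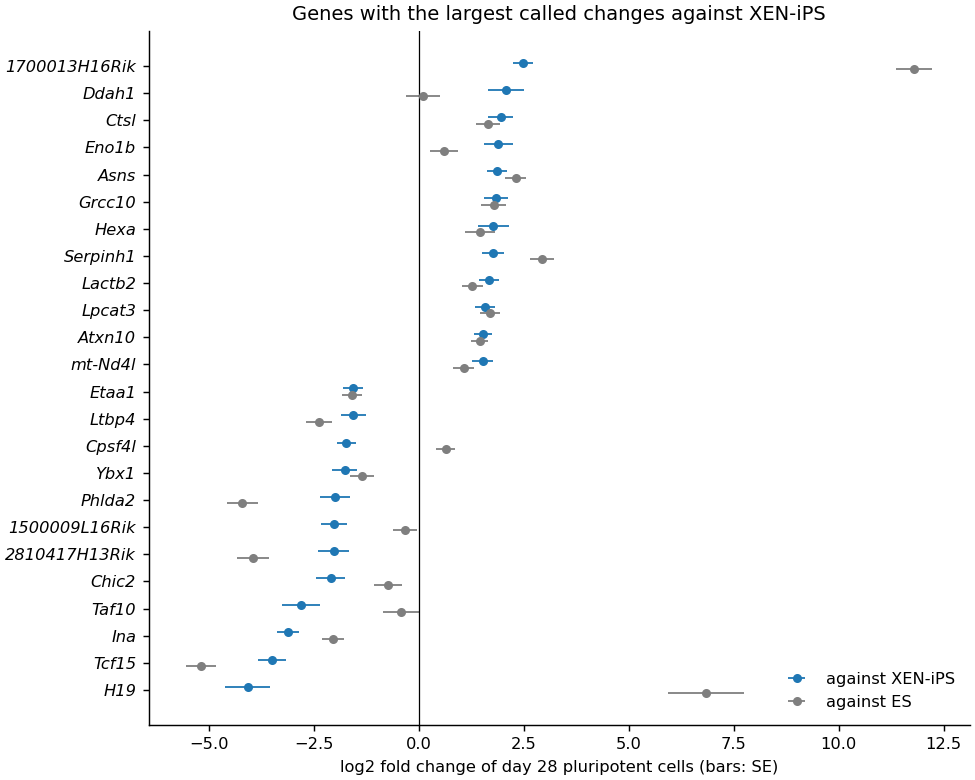
Log2 fold change of the day 28 pluripotent cells against XEN-iPS and against ES for the abundant genes called against XEN-iPS, with bars for the standard error. *Tcf15* (−3.50) and *Ina* (−3.12) were next to the lowest, *H19* (−4.07), and *1700013H16Rik* (2.48) was the highest.

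*Phgdh*, *Aldh18a1*, *Slc1a5* and *Trib3* were also called higher than in XEN-iPS. They were chosen after their values were seen, and no list of genes like them was counted. *Phgdh*, which opens serine synthesis, was at 82.1 and 95.7 CPM in day 28 against 26.2 and 38.6 in XEN-iPS, and *Aldh18a1*, of proline synthesis, at 16.3 and 25.7 against 4.98 and 6.40. *Slc1a5*, a glutamine transporter, was at 15.9 and 22.5 CPM against 6.05 and 8.03, and *Trib3*, a stress-induced pseudokinase, at 20.9 and 23.6 against 7.02 and 5.98. Their log2 fold changes ran from 1.45 to 1.88, with adjusted p from 0.0227 to 0.0448. Against ES, *Aldh18a1* was called higher (1.58 ± 0.29), while *Phgdh*, *Slc1a5* and *Trib3* were at 0.48 ± 0.28, −0.17 ± 0.28 and 0.19 ± 0.31 and were not called.

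Genes of the XEN program were, of the 21 lists described, the one with the largest share called higher in the day 28 cells. Of 32 endoderm genes, 13 were called higher than in XEN-iPS (40.6%, against 1.00% of all genes tested) and none lower, with a median log2 fold change of 1.78 against −0.04 over all genes. They were the basement membrane genes *Col4a1*, *Col4a2* and *Lamb1*, the collagen chaperone gene *Serpinh1*, the transcription factor genes *Sox17*, *Foxa2* and *Foxq1*, the receptor gene *Pdgfra*, the endocytic adaptor gene *Dab2*, and *Srgn*, *Ttr*, *Krt8* and *Ctsl*. The count was 4 and 5 without day 28 replicates 1 and 2, 21 and 18 without XEN-iPS replicates 1 and 2, and 13 when each cell was thinned to 10000 UMIs before the rule was applied. It was 9 without either ES library, and 0 when only the 4 libraries compared were fitted.

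Their amounts were small beside those in XEN cells. *Srgn*, which encodes the proteoglycan serglycin (chromosome 10, 62493833 to 62527451), was at 38.8 and 25.5 CPM in day 28, 1.04 and 0.272 in XEN-iPS, below 0.1 in ES, and 572 and 754 in XEN (5.56 ± 0.52 against XEN-iPS, adjusted p = 0.00286). *Col4a1* was at 44.7 and 31.4 CPM in day 28, 6.02 and 5.35 in XEN-iPS, 2.72 and 3.97 in ES, and 3237 and 2506 in XEN (2.74 ± 0.30, adjusted p = 0.00533). *Sox17*, a factor of primitive endoderm, was at 5.19 and 3.04 CPM in day 28, 0.310 and 0.0906 in XEN-iPS, 0 and 0.199 in ES, and 264 and 275 in XEN (4.27 ± 0.66, adjusted p = 0.0209). For these 3 genes both day 28 libraries were above both of XEN-iPS and of ES, and far below XEN. *Krt8*, an epithelial keratin gene, was at 15.6 and 12.96 CPM in day 28 against 2.52 and 2.05 in XEN-iPS (2.64 ± 0.31), but at 11.8 and 17.3 in ES (−0.03 ± 0.29), where it was not called and where the sign of the change depended on the setting.

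**Figure D3:**
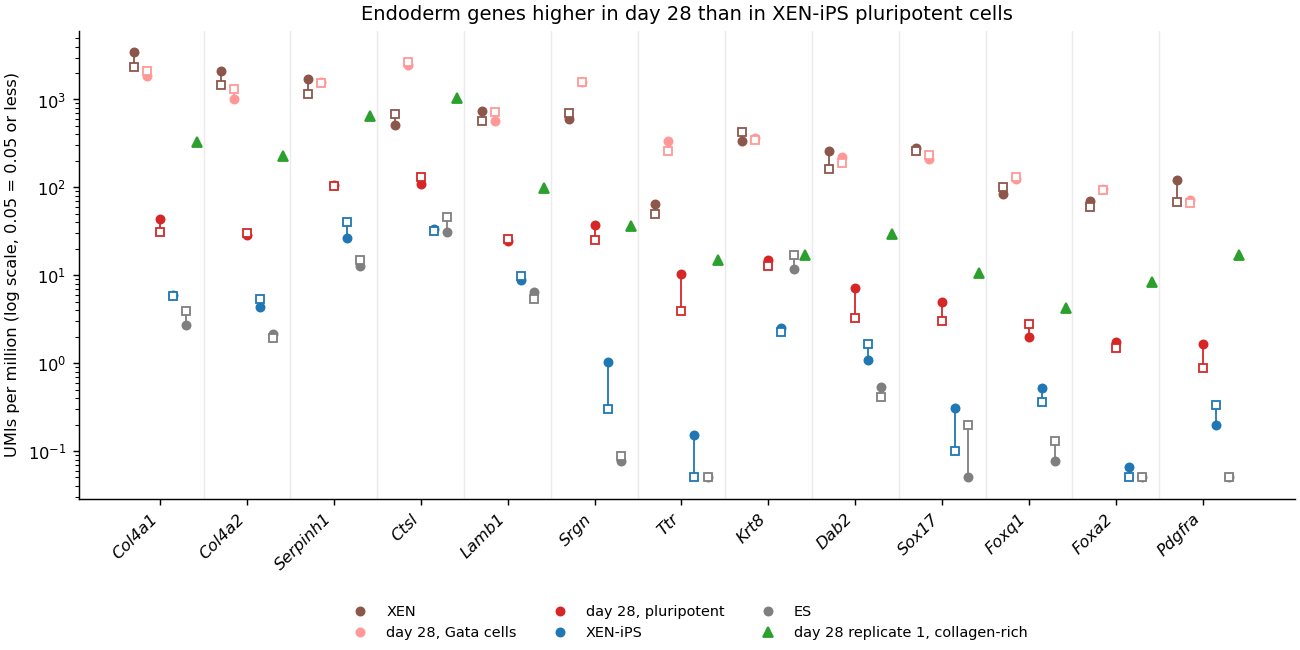
UMIs per 1000000 on a log axis of the 13 endoderm genes called higher in day 28 than in XEN-iPS, in XEN cells, day 28 *Gata* cells, the chosen day 28 cells, XEN-iPS and ES (circles replicate 1, squares replicate 2) and the collagen-rich cells of day 28 replicate 1 (triangles). The chosen day 28 cells lie above XEN-iPS and between 1.28% and 4.85% of the level in the *Gata* cells for *Srgn*, *Sox17*, *Col4a1*, *Krt8*, *Lamb1* and *Ctsl*.

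The same genes were counted in the other cell populations of the day 28 libraries. Collagen-rich cells, with 20 or more collagen UMIs and no *Nanog*, *Gata4* or *Gata6*, numbered 27 in day 28 replicate 1 (median 18325 UMIs per cell) and 1 in replicate 2. Thinned to 5000 UMIs per cell, *Srgn* was found in 16.8% (exact 95% interval 13.7 to 20.2) and 16.1% (11.7 to 21.4) of the chosen cells, in 5 of 26 collagen-rich cells (19.2%, 6.55 to 39.4), and in 97.3% and 95.1% of the *Gata* cells. *Ttr* was found in 2.95% and 2.89% of the chosen cells against 1 of 26 collagen-rich cells (3.85%, 0.0973 to 19.6), and *Sox17* in 1.84% and 1.65% against 2 of 26 (7.69%, 0.946 to 25.1). For these 3 genes, the shares in the chosen cells lay within the intervals of the collagen-rich cells, which are wide at 26 cells. In the 727 collagen-rich cells of XEN-iPS replicate 2, *Srgn* was found in 0.275% and *Ttr* and *Sox17* in none, which the exact interval bounds at 0.506%. Per 1000000 UMIs, *Srgn* was at 37.4 in the chosen cells and 35.9 in the collagen-rich cells of replicate 1, against 1574 in the *Gata* cells of that library. *Col4a1*, which fibroblasts also express, was found in 18.8% and 14.9% of the chosen cells against 57.7%, and in 71.1% of the collagen-rich cells of XEN-iPS replicate 2. *Col4a2*, *Lamb1*, *Dab2* and *Pdgfra* were likewise found in 64.5%, 38.5%, 24.6% and 5.64% of those XEN-iPS cells, so for these genes the collagen-rich cells are no population that lacks them. *Krt8*, at 7.73% and 8.26% of the chosen cells and 1 of 26 collagen-rich cells (3.85%, 0.0973 to 19.6), could not be told from it at this number of cells. In XEN-iPS, *Srgn* was found in 0.587% and 0.115% of the chosen cells. Before thinning, the *Srgn* shares were 68.6% and 73.8% in the chosen cells, 29.6% in the collagen-rich cells, 99.4% and 99.6% in *Gata* cells and 2.23% and 0.513% in XEN-iPS. Those of *Ttr* were 18.9% and 19.7% in the chosen cells and 22.2% in the collagen-rich cells, those of *Sox17* 14.9% and 13.9% against 14.8%, those of *Col4a1* 69.5% and 75.8% against 85.2%, and those of *Krt8* 32.7% and 38.5% against 14.8%. The chosen cells were the deeper of the 2 populations, which raises shares before thinning.

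Over 31 endoderm genes at 10 or more UMIs per 1000000 in *Gata* cells, the chosen cells held a median of 4.09% of the *Gata* cell level in replicate 1 and 2.99% in replicate 2. This share ran from 1.63% to 48.4% in replicate 1 and from 1.26% to 109% in replicate 2, highest for *Apoe*, an apolipoprotein gene. The next highest shares were 10.6% for *Nid1* in replicate 1 and 9.44% for *Krt19* in replicate 2. *Apoe* was also at 515 and 614 CPM in ES, against 377 and 629 in day 28 and 327 and 253 in XEN-iPS, and was not called in either comparison. Per cell, at 5000 UMIs, the endoderm list summed to a median of 5 UMIs in the chosen cells of both day 28 libraries, 2 in both XEN-iPS libraries, and 3 and 4 in ES. It was 94 and 102 in *Gata* cells and 27 in the collagen-rich cells, which express several genes of the list. In the chosen day 28 cells, 1.66% and 0% had no endoderm UMI, against 11.9% and 12.2% in XEN-iPS and 4.83% and 5.47% in ES. The 95th percentile was 12 and 15 UMIs in day 28, 8 and 6 in XEN-iPS, and 10 and 12 in ES. The sums per cell and the shares of cells with no endoderm UMI include *Apoe*, which was higher in ES than in XEN-iPS. They were not taken without *Apoe*. How near the day 28 cells were to ES in the other endoderm genes therefore cannot be read from them. Cells with both *Nanog* and a *Gata4* or *Gata6* UMI, which the rule left out, had a median of 7 and 12 endoderm UMIs, with an upper quartile at 25 and 28.5.

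**Figure D4:**
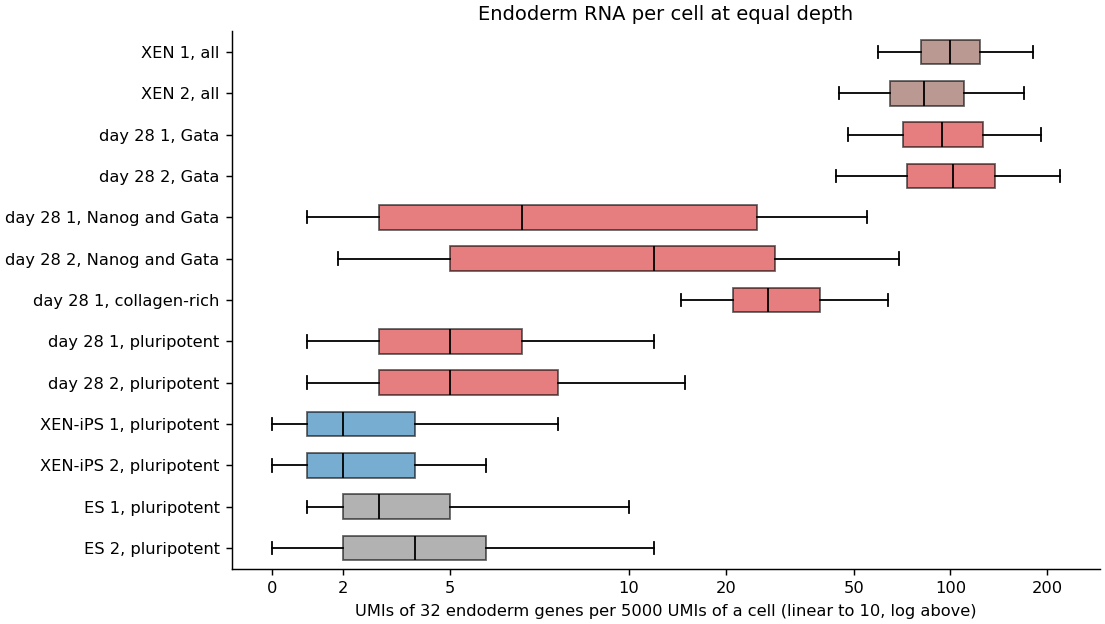
UMIs of the 32 endoderm genes, *Apoe* among them, per cell after thinning to 5000 UMIs, on an axis that is linear to 10 and logarithmic above. Boxes span the quartiles with the median as a line, and whiskers the 5th to 95th percentile of cells; medians were 5 in the chosen day 28 cells, 2 in XEN-iPS, 3 and 4 in ES, and 94 and 102 in day 28 *Gata* cells.

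Of the 151 genes called higher than in XEN-iPS, 50 (33.1%) were at least 10-fold higher again in the *Gata* cells of both day 28 libraries, against 456 of all 15075 genes tested (3.03%). *Gkn1* and *Gkn2*, gastrokine genes named after their values were seen, belonged to that group, with *Gkn1* at 23.0 and 43.6 CPM in the chosen cells, 0.0664 and 0 in XEN-iPS, and 41.2 and 141 in XEN. *Gkn1* was found in 11.4% and 16.9% of the chosen cells at 5000 UMIs, 33.0% and 48.4% of *Gata* cells and 2 of 26 collagen-rich cells (7.69%), and before thinning in 49.6% and 82.4%, 56.2% and 85.7%, and 22.2%. Another 31 of the 151 (20.5%, against 20.3% of all genes tested) were at least 2-fold lower in the *Gata* cells than in the chosen cells, and for these the *Gata* cells were not the richer population. How much free RNA of *Gata* cells adds to the values of the chosen cells was not tested.

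*Pvalb*, which encodes the calcium buffer parvalbumin (chromosome 15, 78191114 to 78206400) and was named after its values were seen, was among those 31. It was at 30.7 and 22.8 CPM in the day 28 cells, 0.111 and 0.0302 in XEN-iPS, 0 in both ES libraries, and 0 and 0.0267 in XEN (8.43 ± 0.67 against XEN-iPS, adjusted p = 0.00256). It was found in 16.2% and 10.7% of the chosen cells at 5000 UMIs, 3.89% and 1.40% of *Gata* cells, 0 of 26 collagen-rich cells, and 0.0978% and 0.0577% of XEN-iPS cells (48.9% and 57.8% of the chosen cells before thinning, against 10.2% and 5.74% of *Gata* cells). The share in the chosen cells was thus above those in *Gata* cells, and could not be told from that in the cells with *Nanog* and *Gata4* or *Gata6*, at 14.7% (9.97 to 20.5) and 9.32% (4.75 to 16.1). *Pvalb* was called under all 19 alternative settings, but it passed the filter on low counts only through day 28, the group where it was high. A higher call was thus favoured in advance, and these calls are given as a description.

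Of 18 germline genes, 1 was called higher than in XEN-iPS (5.56%, against 1.00% of all genes tested) and 12 were called higher than in ES (against 10.8% of all genes). The difference between these counts was not tested. Against XEN-iPS the count was 9 without XEN-iPS replicate 1, 4 without replicate 2 and 0 without either day 28 library. The 1 gene was *Asz1*, of the piRNA pathway, at 11.1 and 8.52 CPM against 0.531 and 0.0906 (4.91 ± 0.76, adjusted p = 0.0209). Before thinning it was found in 3 of 6942 and 8 of 6155 XEN cells. *Asz1* may thus have passed the filter on low counts mainly through day 28, where it was high. Its call and the share of 5.56% are given as a description. The list's median log2 fold change was 0.66, and 1.58 and 0.0086 without XEN-iPS replicates 1 and 2. *Dazl*, an RNA-binding protein gene of germ cells (chromosome 17, 50279395 to 50293636), was at 90.4 and 55.1 CPM in day 28, 15.9 and 0.906 in XEN-iPS, and 1.21 and 1.46 in ES. The XEN-iPS libraries lay above and below both ES libraries, and the difference from XEN-iPS did not pass (3.11 ± 0.92, adjusted p = 0.106), while that from ES did (5.77 ± 1.06, adjusted p = 0.00711). *Crxos*, a homeobox gene, was at 91.0 and 63.8 CPM against 15.8 and 1.30 (3.17 ± 0.82, adjusted p = 0.0794) and at most 0.103 in ES. *Rhox5*, an X-linked homeobox gene known to be silenced by methylation, was at 570 and 544 CPM in day 28, 249.6 and 15.9 in XEN-iPS, 9.85 and 6.45 in ES, and 96.2 and 253 in XEN.

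For these 3 genes the day 28 libraries were above both XEN-iPS libraries, with the lower values in XEN-iPS replicate 2 each time. At 5000 UMIs, *Dazl* was found in 30.0% and 21.1% of the chosen cells, 2.33% and 1.07% of *Gata* cells, 0 of 26 collagen-rich cells, and 6.94% and 0.346% of XEN-iPS cells (68.4% and 69.3% of the chosen cells before thinning, against 6.70% and 6.23% of *Gata* cells). *Crxos* was found in 31.3% and 26.0% of the chosen cells, 4.17% and 3.63% of *Gata* cells, and 0 of 26 collagen-rich cells. *Asz1* was rarer, in 4.42% and 3.31% of the chosen cells, and its share in *Gata* cells, 3.73% and 3.63%, was within the counting interval. Before thinning, *Crxos* was found in 78.5% and 79.1% of the chosen cells and 9.25% and 8.77% of *Gata* cells, and *Asz1* in 19.5% and 22.5% against 12.8% and 13.6%. Named after their values were seen, *Gtsf1*, a further piRNA factor gene, was at 30.2 and 24.7 CPM against 6.05 and 1.27 in XEN-iPS (2.90 ± 0.59, adjusted p = 0.0489). The X-linked cancer-testis genes *Magea2*, *Magea5*, *Magea8* and *Magea10* were each at 0.889 to 3.11 CPM in day 28, at most 0.0604 in XEN-iPS and 0 in ES, and all 4 were called higher than in XEN-iPS. Of the pluripotent groups, only day 28 could bring them past the filter on low counts. Higher calls were thus favoured in advance and are given as a description. *Magea* genes are close copies of one another, so their separate counts are uncertain.

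**Figure D5:**
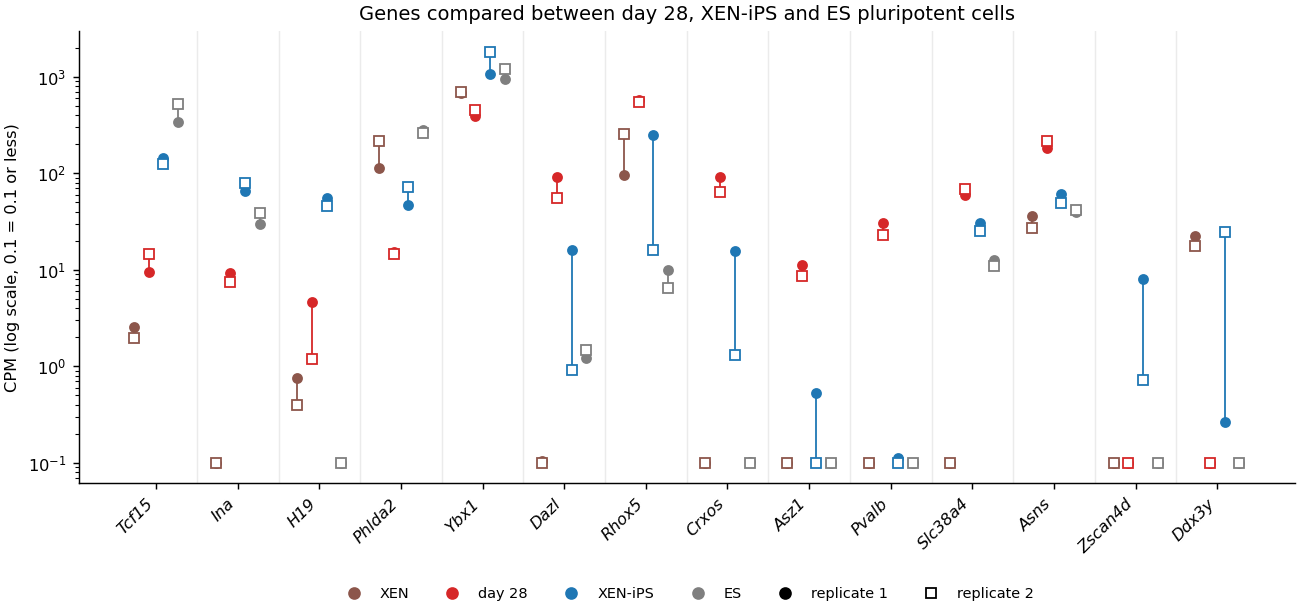
CPM on a log axis of 14 genes compared between the chosen day 28 cells, XEN-iPS and ES, with XEN beside them (filled circles replicate 1, open squares replicate 2, values of 0.1 or less drawn at 0.1). *Tcf15* at 9.45 and 14.4 CPM, *Ina* and *H19* were below both XEN-iPS libraries in day 28, while *Dazl*, *Rhox5*, *Crxos*, *Asz1*, *Pvalb*, *Slc38a4* and *Asns* were above both.

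Imprinted genes were called in both directions. Of 31 tested, 1 was called higher than in XEN-iPS and 3 lower (against 1.00% and 0.723% of all genes tested), with a median log2 fold change of −0.45. Without XEN-iPS replicate 1 the counts were 3 higher and 8 lower, without replicate 2 they were 1 and 7, without day 28 replicate 1 they were 0 and 1, and without day 28 replicate 2 none was called. *H19*, a maternally expressed non-coding RNA (chromosome 7, 142575529 to 142578143), was at 4.64 and 1.19 CPM in day 28, 55.1 and 45.3 in XEN-iPS, and 0.0257 and 0.0221 in ES (−4.07 ± 0.54 against XEN-iPS, adjusted p = 0.0131). It was found in 2.76% and 0.413% of the chosen cells at 5000 UMIs, against 8.56% and 7.01% of the *Gata* cells and 3 of 26 collagen-rich cells (11.5%) in the same libraries, and so was rarer in the chosen cells than in *Gata* cells (7.54% and 4.92% against 16.4% and 17.6% before thinning). The call was lost without day 28 replicate 2. *Phlda2*, a maternally expressed growth regulator, was at 15.2 and 14.5 CPM in day 28, 46.7 and 71.8 in XEN-iPS, and 283 and 263 in ES (−1.99 ± 0.35, adjusted p = 0.031). The paternally expressed *Peg3* was at 17.6 and 15.2 CPM against 45.2 and 37.1 in XEN-iPS (−1.33 ± 0.22, adjusted p = 0.0261). *Slc38a4*, an amino acid transporter gene, was at 59.9 and 68.9 CPM in day 28, 30.4 and 25 in XEN-iPS, 12.5 and 10.8 in ES, and below 0.03 in XEN (1.22 ± 0.24, adjusted p = 0.0459).

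*Mest*, another paternally expressed gene, was at 34.6 and 44.4 CPM in day 28, 94.9 and 17.3 in XEN-iPS, and below 0.03 in ES. Its XEN-iPS duplicates lay on both sides of the day 28 values. A like split was seen for RNA of the Y chromosome. No UMI of *Ddx3y*, *Eif2s3y*, *Kdm5d* or *Uty* was found in the 788 chosen day 28 cells, of 32573683 UMIs, which allows up to 0.0921 per 1000000. These 4 genes summed to 0.418 and 55.4 UMIs per 1000000 in the chosen XEN-iPS cells, 0.152 and 0.130 in ES, 35.9 and 26.2 in XEN, and 3.20 and 0.180 in the day 28 *Gata* cells. XEN-iPS replicate 1 was therefore nearer to the day 28 cells, and replicate 2 was above both XEN libraries. At least 1 UMI of the 4 genes was found in 1045 of the 1753 chosen cells of XEN-iPS replicate 2. In XEN that held for 1802 of 6942 and 1578 of 6155 cells. *Ddx3y* alone was at least 214-fold higher in XEN than in the chosen day 28 cells, taking 3 counts over both day 28 libraries as the floor. *Xist* was at 0.765 and 0.741 CPM in day 28 and at most 0.544 in each library of the other 3 groups.

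RNA of the transient state that resembles the 2-cell embryo was near 0 in the day 28 cells, at 0.437 and 0.370 CPM over the list. Of 17 genes of that list, 5 passed the filter on low counts, and all 5 were called higher in XEN-iPS than in ES. They passed through XEN-iPS, so lower values in day 28 were favoured in advance and the calls are given as a description. *Usp17lc* was called lower than in XEN-iPS (20% of the 5, against 0.723% of all genes tested), against 3 and 7 genes without XEN-iPS replicates 1 and 2 and 0 without any 1 of the other 6 libraries. *Zscan4c* and *Zscan4d* had no UMI in the 788 cells, against 382 and 388 UMIs in the chosen XEN-iPS cells, at least 54.8-fold and 55.7-fold higher. In XEN-iPS, *Zscan4c* was at 8.04 CPM in replicate 1 and 0.574 in replicate 2, so the amount there rested mostly on 1 library.

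Of 17 Wnt target genes, *Dkk1* was called higher (5.88%, against 1.00% of all genes tested), and *Notum* and *Ccnd2* lower (11.8%, against 0.723%), with a median of −0.64. The counts were 2 higher and 4 lower without XEN-iPS replicate 1, 2 and 3 without replicate 2, 0 and 1 without either XEN library, and none without any 1 day 28 or ES library. *Dkk1*, a secreted Wnt inhibitor gene, was found in 0.921% and 0.413% of the chosen cells at 5000 UMIs and in 19.3% and 12.4% of *Gata* cells (5.33% and 3.28% against 43.3% and 39.8% before thinning), and its level per 1000000 UMIs was 26.0-fold and 51.0-fold higher in the *Gata* cells. *Notum*, another such inhibitor gene, was at 5.19 and 3.33 CPM in day 28, 20.1 and 33.5 in XEN-iPS, and 12.8 and 20.8 in ES (−2.64 ± 0.43, adjusted p = 0.0248). *Ccnd2* was at 3.27 and 1.69 UMIs per 1000000 in the chosen cells and 120 and 110 in *Gata* cells. In the collagen-rich cells of replicate 1 it was at 500, and the part of feeder RNA in its difference was not tested. The day 28 medium held a GSK3β inhibitor, which activates the Wnt pathway, and those of XEN-iPS and ES did not. *Axin2*, a direct target of the pathway, was at 12.1 and 8.52 CPM against 2.72 and 6.95 (1.10 ± 0.59, adjusted p = 0.323). Of 14 AP-1 and immediate early genes, *Atf3* was called higher (7.14%, against 1.00% of all genes tested), while without XEN-iPS replicate 1 there were 4 higher and 2 lower, without replicate 2 there were 2 higher, and without either day 28 library none. *Atf3*, a stress-induced factor gene, was at 8.85 and 8.96 CPM against 1.66 and 0.906 (2.77 ± 0.47, adjusted p = 0.0294). *Jun* was at 64.0 and 51.5 CPM against 23.6 and 3.81 (2.07 ± 0.66, adjusted p = 0.126). *Atf3* was found in 2.58% and 4.13% of the chosen cells at 5000 UMIs, against 9 of 26 collagen-rich cells (34.6%). Before thinning it was found in 23.7% and 31.6% of the chosen cells, 55.6% of the collagen-rich cells and 71.9% and 78.4% of *Gata* cells.

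No gene was called in either direction in the lists of LIF and STAT3 targets (15 tested, median −0.23), FGF and ERK targets (15, −0.07), Nodal and BMP targets (15, −0.74), DNA methylation factors (11, −0.42), glycolysis and hypoxia (24, 0.11), p53 targets and cell cycle inhibitors (16, −0.30), cell cycle (18, −0.04) and trophoblast (12, 0.62). The same held for the 4 genes of the X and Y chromosome list that passed the filter. Of that list, *Ddx3y*, *Eif2s3y* and *Uty* had no UMI in day 28 and passed through XEN or XEN-iPS. Lower calls of them under any setting were thus favoured in advance. Without XEN-iPS replicate 1, calls appeared in all of these lists but that of p53 targets. There were 4 lower of the LIF and STAT3 targets, 3 higher and 3 lower of the FGF and ERK targets, 2 higher and 5 lower of the Nodal and BMP targets, whose median turned to 0.34, 3 higher of the trophoblast genes and 4 lower of the X and Y list, with 1 or 2 each way in the other 3. Without replicate 2, there were 1 higher and 2 lower of the LIF and STAT3 targets, 2 and 3 lower of the FGF and Nodal lists, 2 lower of the trophoblast genes, 1 lower of the DNA methylation factors, and 2 higher and 1 lower of glycolysis and hypoxia. *Foxa2*, also an endoderm gene, was the 1 called of 18 formative and primed genes (5.56% higher, against 1.00% of all genes tested, with a median of −0.80), where 2 higher and 5 lower were called without XEN-iPS replicate 1 and 2 higher and 1 lower without replicate 2. *Tet2*, a methylcytosine dioxygenase gene, was at 13.9 and 13.2 CPM against 24.3 and 32.5, and missed the threshold (−1.07 ± 0.22, adjusted p = 0.0512). Of 24 genes taken from the study's account of these data and tested, which is no independent evidence of direction, *Atf3*, *Pdgfra* and *Sox17* were called higher (12.5%, against 1.00% of all genes tested) and none lower (median 0.05). That became 5 higher and 3 lower without XEN-iPS replicate 1, 6 and 1 without replicate 2, 2 and 0 without either ES library, 1 and 0 without either XEN library, and none without either day 28 library.

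Of 13 mitochondrial genes, *mt-Nd2*, *mt-Nd4l* and *mt-Nd5* were called higher (against 1.00% of all genes tested), with a median log2 fold change of 1.16. The count was 9 and 6 without XEN-iPS replicates 1 and 2, 1 without either XEN library, and 0 without any 1 day 28 or ES library. The list made up a median of 2.78% and 2.85% of a cell's UMIs in day 28, 2.19% and 1.21% in XEN-iPS, and 2.18% and 1.96% in ES. The XEN-iPS duplicates differed from each other by more than replicate 1 differed from day 28. The 20 fibroblast genes, which leave out the collagens of the rule, summed to 15.2 and 24.1 CPM in day 28, 43.4 and 259 in XEN-iPS, and 35.3 and 30.4 in ES, with *Lum* and *Dcn* at 0 in day 28, and 2 of 17 tested, *Dcn* and *Tagln*, were called lower than in XEN-iPS (11.8%, against 0.723% of all genes tested, with a median of −2.65). The count was 14 and 3 without XEN-iPS replicates 1 and 2, and 0 without any 1 of the other 6 libraries. The lower values of *Ccl2* and *Ccl7*, named after their values were seen, went with that sum: *Ccl7* had no UMI in day 28 and was at 5.78 and 37.0 CPM in XEN-iPS. The part of feeder RNA in these 2 differences was not tested. *Dcn* and *Ccl7* had no UMI in day 28 and at most 1 in ES, so they passed the filter on low counts through other groups. Lower calls, and with them the share of 11.8%, were thus favoured in advance and are given as a description. Trophoblast genes summed to 64.6 and 64.4 CPM in day 28, 60.7 and 29.6 in XEN-iPS, and 44.6 and 42.4 in ES.

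*Ctsa*, *Ctsb*, *Ctsc*, *Ctsh*, *Ctsz*, *Lgmn* and *Hexa*, which encode enzymes of the lysosome, were each called higher than in XEN-iPS. They were named after their values were seen, and no list of such genes was counted. Per 1000000 UMIs, *Gata* cells of the day 28 libraries held 41.1-fold and 40.7-fold more of *Ctsh* than the chosen cells and 11.9-fold and 10.6-fold more of *Lgmn*. They held 3.06-fold and 3.66-fold more of *Hexa*, and between 5.20-fold and 10.3-fold more of the other 4. The collagen-rich cells of replicate 1 held 1516 of *Ctsb*, 296 of *Ctsa* and 251 of *Hexa*, more than the *Gata* cells of that library. *Ctsc*, *Ctsh*, *Ctsz* and *Lgmn* were lower there than in *Gata* cells. The part of either population in the difference was not tested. *Ctsb*, a cathepsin gene, was at 54.6 and 72.4 CPM in day 28, 25.4 and 26.0 in XEN-iPS, and 157 and 177 in XEN. *Hexa*, a subunit of β-hexosaminidase, was at 54.5 and 56.8 CPM in day 28 against 19 and 13.4, and at 10.8 and 23.4 in XEN. *Ctsb* thus stood between XEN-iPS and XEN, and *Hexa* above both.

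Against ES cells, which came from another line but the same sequencing project, 2628 genes (17.4%) were called, 1621 higher (10.8%) and 1007 lower (6.68%) in day 28. That comparison shares the day 28 libraries with the one against XEN-iPS. XEN-iPS against ES gave 1781 genes (11.8%), 1243 higher (8.25%) and 538 lower (3.57%). Both counts depended on the libraries fitted: that of 2628 was 774 and 816 without day 28 replicates 1 and 2 and 829 and 566 without ES replicates 1 and 2, and that of 1781 was 242 and 166 without ES replicates 1 and 2, 3014 and 3030 without XEN-iPS replicates 1 and 2, 1058 and 1071 without day 28 replicates 1 and 2, and 570 with only the 4 libraries compared. Of the 18 core pluripotency genes, 7 were called lower in day 28 than in ES (38.9%, against 6.68% of all genes tested) and none higher, with a median of −0.67. That count was 2 and 3 without day 28 replicates 1 and 2 and 2 without either ES library. *Pou5f1* was at 562 and 464 CPM in ES (−1.25 ± 0.35, adjusted p = 0.0329), and *Lin28a*, an RNA-binding protein gene, at 16.9 and 18 CPM in day 28 against 71.3 and 75.6 in ES (−2.07 ± 0.27, adjusted p = 0.00154). *Sox2* was at 238 and 236 CPM in ES (−0.11 ± 0.26, adjusted p = 0.797). In XEN-iPS, 1 of the 18 was called lower than in ES.

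Of 18 naive genes, 4 were called higher than in ES (*Dppa3*, *Fbxo15*, *Tfap2c* and *Pecam1*, 22.2%, against 10.8% of all genes tested) and 2 lower (*Klf5* and *Tet2*, 11.1%, against 6.68%). XEN-iPS against ES gave 5 naive genes higher and 2 lower. *Tfap2c*, a factor shared with germ cells, was at 54.0 and 49.2 CPM in day 28, 34.4 and 65.6 in XEN-iPS, and 3.82 and 3.18 in ES (3.88 ± 0.36, adjusted p = 0.000415). Of 18 germline genes, 12 were called higher than in ES (66.7%) and 1 lower, with a median of 3.34 and with 7 and 5 higher without ES replicates 1 and 2, beside 7 higher and 1 lower in XEN-iPS against ES. *Rhox6* and *Rhox9* were at 37.8 to 40.1 CPM in day 28 and below 0.6 in ES. The endoderm list gave 19 higher (59.4%) and 1 lower of 32, and between 16 and 21 higher with any 1 library left out, with a median of 2.65, beside 7 higher and 3 lower in XEN-iPS against ES.

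Of 15 LIF and STAT3 targets, 5 were called lower than in ES (33.3%, against 6.68% of all genes tested) and 1 higher. FGF and ERK targets gave 4 lower (26.7%) and 1 higher of 15, and Wnt targets 4 (23.5%) and 1 of 17. DNA methylation factors gave 3 lower (27.3%) of 11 and cell cycle genes 4 (22.2%) of 18, with 0 higher in both. Each of these lists had fewer called lower without any 1 day 28 or ES library. In XEN-iPS against ES, 6 LIF and STAT3 targets were called lower and 1 higher. There, 3 FGF and ERK targets, 2 Wnt targets and 1 cell cycle gene were called lower and none higher. No DNA methylation factor was called there. Of 31 imprinted genes, 8 were called higher than in ES (25.8%, against 10.8% of all genes tested) and 4 lower (12.9%, against 6.68%), beside 12 higher and 4 lower in XEN-iPS against ES. *Cdkn1c*, a maternally expressed cell cycle inhibitor gene, was at 0.928 and 1.26 CPM in day 28, 3.59 and 2.27 in XEN-iPS, and 29.3 and 43.5 in ES (−5.07 ± 0.40, adjusted p = 0.000222). Of 15 Nodal and BMP targets, 2 were called higher than in ES (13.3%, against 10.8% of all genes tested) and 2 lower (13.3%, against 6.68%), so the list held genes of both directions. The counts were also 2 higher and 2 lower in XEN-iPS against ES. *Id1*, a BMP target gene, was at 24.9 and 24.4 CPM in day 28, 60.7 and 19.2 in XEN-iPS, and 222 and 197 in ES (−3.09 ± 0.55, adjusted p = 0.00644), while *Id3*, another such target, was at 180.5 and 104 CPM in day 28, 76.8 and 37.8 in XEN-iPS, and 51.5 and 46.9 in ES (1.53 ± 0.45, adjusted p = 0.0415, and called in 13 of 19 alternatives). Of 14 AP-1 and immediate early genes, 4 were called higher (28.6%, against 10.8% of all genes tested) and none lower, while without day 28 replicate 1 none was called and without day 28 replicate 2 or ES replicate 1 there was 1. Among the 4 were *Jun* (3.06 ± 0.69, adjusted p = 0.016) and *Egr1* (132 and 81.8 CPM against 8.47 and 24.3 in ES, 2.71 ± 0.64, adjusted p = 0.0187). No AP-1 or immediate early gene was called in XEN-iPS against ES. *Hmga2*, a chromatin protein gene, was at 59.7 and 54.3 CPM in day 28, 16.9 and 31.6 in XEN-iPS, and 21.1 and 16.5 in ES (1.60 ± 0.30 against ES, adjusted p = 0.00818, and 1.23 ± 0.30 against XEN-iPS, adjusted p = 0.0725).

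The lowest abundant genes against ES were *Mid1*, *Mras*, *Tcf15*, *Rpl29*, *Phlda2* and *1190005I06Rik*, with log2 fold changes from −6.37 to −3.99. *Rpl29*, a ribosomal protein gene with many processed copies, was at 33.2 and 166 CPM in day 28, 42.1 and 303 in XEN-iPS, and 2292 and 2226 in ES, and its value is uncertain. The highest were *1700013H16Rik*, *Crxos*, *1700019B21Rik*, *RP23-212C9.3*, *Rhox5* and *Dazl*, with log2 fold changes from 5.77 to 11.79.

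Among the chosen day 28 cells, the genes with the largest variance relative to their mean at 5000 UMIs, in both libraries, were *Malat1*, *mt-Co1*, *Mt1*, *Dppa5a*, *Mt2*, *Ftl1*, *Tmsb4x* and *Platr13*. Variance over mean was 13.5 and 18.1 for *Malat1*, a nuclear non-coding RNA, and 16.7 and 18.1 for the same gene in XEN-iPS. The metallothionein gene *Mt2* was at 7.85 and 17.2 in day 28 and 7.67 and 8.91 in XEN-iPS. *Platr13*, a non-coding RNA of pluripotent cells, was at 7.22 and 5.97 in day 28, 4.61 and 1.99 in XEN-iPS, and 2.66 and 2.08 in ES. Its level was 1412 and 1127 CPM in day 28, 613 and 399.9 in XEN-iPS, and 369 and 369 in ES (1.33 ± 0.53 against XEN-iPS, adjusted p = 0.198, and 1.78 ± 0.53 against ES, adjusted p = 0.0433).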

How the data were processed

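The authors captured single cells by the 10x Genomics 3' method (version 2) and ran SEQC against mm10 (GRCm38), and cells with over 20% mitochondrial molecules had been removed. The deposited values are raw counts of UMIs, whole numbers for each cell and gene. Other assays of the study were not analysed here.

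UMIs of cells chosen by the rule (XEN: all cells with 500 or more genes and under 5 collagen UMIs) were summed per library, since cells are not replicates, and XEN, day 28, XEN-iPS and ES were compared in 1 model of 8 libraries with 4 residual degrees of freedom. The test was edgeR 4.0.16's quasi-likelihood test (TMM, filterByExpr, Benjamini-Hochberg over all 15075 genes; limma 3.58.1, R 4.3.3). CPM are TMM-scaled, while values per 1000000 UMIs are not. A gene was called at an adjusted p under 0.05 and 2-fold. The 6 genes of the rule were not tested, nor were chosen cells against other day 28 cells. Shares of cells used cells thinned to 5000 UMIs, with exact 95% intervals that cover counting error only. Positions are those of GENCODE vM21. Alternatives included DESeq2 1.42.0, RLE factors, no filter, other thresholds of the rule and each library left out. Scrublet (scanpy 1.11.5) marked at most 0.504% of a library as doublets, which is too few to have worked, so doublets were kept. Python 3.11.15, numpy 2.4.6, pandas 2.3.3, scipy 1.17.1 and matplotlib 3.10.9 were used, and the tests were checked on simulated data. The simulation gave every library the same spread, so it cannot bear on the wider spread of XEN-iPS.

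The members and gene lists were chosen with earlier results of these data known. Genes were named by rule: markers; among called genes that reached 50 CPM and whose libraries did not overlap, the 12 largest changes each way against XEN-iPS and the 6 each way against ES; up to 4 called members per list at 10 CPM or more; and genes the study names. Other members of the lists are given as examples of them, and genes chosen after their values were seen are marked as such, as are those of the set that held without any 1 library.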

Additional observations from a re-analysis of the deposited data

Results flagged for a closer look

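The rule also chose cells in libraries outside the comparisons. It found 4 cells in day 7 replicate 2, 16 cells in day 14 replicate 1 and 6 cells in day 14 replicate 2, while none was found in either XEN library, which holds no induced cells, or in day 7 replicate 1. They were flagged because they lie above the level of the uninduced XEN libraries. In the other libraries outside the comparisons, which start from the ES line and have no such control, the 9h libraries gave 453 and 502 chosen cells, the 24h libraries 138 and 132, the 48h libraries 62 and 24, and iXEN replicate 1 gave 5, with none in iXEN replicate 2. With so few cells at day 7 and day 14, no comparison of their genes was made.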

How the results depend on the processing

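Against XEN-iPS the count of 260 moved to 960 with DESeq2, 1 with only the 4 libraries compared, 155 with no low-count filter, 93 with cells thinned to 10000 UMIs (88 shared with the 260) and 150 with 5 or more *Nanog* UMIs, and ran from 15 to 2722 with a library left out (lowest without day 28 replicate 1, highest without XEN-iPS replicate 1). Against ES, 2628 became 1543 with thinned cells, and 566 to 3705 with a library left out (lowest without ES replicate 2, highest without XEN-iPS replicate 2, also 774 and 816 without day 28 replicates 1 and 2 and 829 without ES replicate 1). XEN-iPS against ES, 1781, became 570 with only 4 libraries and 928 with 5 or more *Nanog* UMIs, and 166 to 3030 with a library left out (lowest without ES replicate 2, highest without XEN-iPS replicate 2). Fewer libraries or genes enter several of these fits, and otherwise the cause was not tested. Other settings stayed within 1.5 times each count. With the replicate block, the counts were 304 (220 shared), 2579 and 1656. Correlations of same-numbered deviations were 0.153 to 0.205 among XEN, day 28 and ES, and −0.0396 to 0.0496 with XEN-iPS. The labels name no source that same-numbered libraries share and not every pair was above 0.1, so the block was kept as an alternative. Depth differed between groups, which limits reading of the *Nanog* threshold.

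Among the genes named in the text, 120 followed against XEN-iPS and 113 against ES, none that was called in a comparison changed sign there under any setting run, while 45 values of genes not called did. All 260 genes called against XEN-iPS kept their sign in those of the 19 alternatives that tested them. With a library left out, the sign turned against XEN-iPS for *Dppa3* (−0.12 to 0.61), *Eno1* (−0.29 to 0.60), *Esrrb* (−1.15 to 0.24), *Id1* (−1.31 to 0.36), *Malat1* (−0.66 to 0.20), *Mest* (−1.28 to 1.19), *Mid1* (−3.92 to 1.96), *mt-Co1* (−0.23 to 1.44), *Pou5f1* (−1.03 to 0.018), *Rhox6* (−0.15 to 1.62), *Rhox9* (−0.30 to 0.92), *Rpl29* (−2.37 to 1.22), *Sox2* (−0.44 to 0.0078), *Tfap2c* (−0.34 to 0.57) and *Tmsb4x* (−0.50 to 0.0014), and against ES for *1500009L16Rik* (−0.64 to 0.028), *Apoe* (−0.59 to 0.14), *Ddah1* (−0.24 to 0.35), *Eno1* (−0.57 to 0.83), *Krt8* (−0.29 to 0.27), *Slc1a5* (−0.45 to 0.047), *Trib3* (−0.0054 to 0.38), *Usp17lc* (−0.26 to 0.17) and *Zfp42* (−0.061 to 0.40). With other settings, *Eno1* against ES was at 0.015 with RLE factors, 0.015 with DESeq2 and 0.040 with the replicate block. *Krt8* against ES was at 0.0066 with RLE factors, 0.0068 with DESeq2, 0.68 with thinned cells, 0.017 with 1 or more *Nanog* UMIs and 0.074 with no collagen UMI. *Rhox9* against XEN-iPS was at −0.11 with thinned cells and −0.074 with 5 or more *Nanog* UMIs. *Slc1a5* against ES was at 0.044 with 5 or more *Nanog* UMIs. *Sox2* against ES was at 0.030 with 5 or more *Nanog* UMIs. *Tfap2c* against XEN-iPS was at −0.14 with thinned cells and −0.0033 with no collagen UMI. *Usp17lc* against ES was at 1.39 with thinned cells, 0.75 with 1 or more *Nanog* UMIs and 0.045 with 5 or more *Nanog* UMIs. No value that changed sign passed the threshold.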
